A study of Mus musculus with 4 samples.

Results

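Circular RNAs that lie inside a transcript, join 2 or more exons and have a short intron on either side were described in differentiated C2C12 cells. A circle belonged here when it was exonic, its lowest exon number was 3 or more, an annotated intron flanked it on both sides, and both of these introns were under 3000 nt. Of 69136 circles listed, 4074 were exonic and 665 met this rule. Of the 665 circles, 69 lay in 1 region of chromosome 2, where they reach from 76628853 to 76732480 on the minus strand (mm9, counted from 1), so values are given with and without it. The working name of that region is the titin locus, while the files pair its transcript model, ENSMUST00000111882, with no gene symbol. The rule uses structure, and read counts enter only where rows of a circle differ, since the row with most reads then gives its structure.

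A circular RNA arises by back-splicing, in which the 5' splice site (donor) at the end of an exon is joined to the 3' splice site (acceptor) of an exon upstream. Long flanking introns, which often hold inverted repeats that can pair, are a known feature of many animal circles. C2C12 is a mouse myoblast line that fuses into multinucleate, contracting myotubes. Titin is the giant elastic protein of the sarcomere, and its gene has a very large number of exons, many of which keep the reading frame.

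There were 4 libraries, all of C2C12 cells kept 3 to 4 days in a differentiation medium that held 2% horse serum, with no genotype or drug set apart. In 2 of them total RNA was read, and in 2 the RNA had gone through RPAD, which combines RNase R digestion (30 min), addition of poly(A) tails to linear RNA and removal of poly(A)+ RNA. One protocol label names HeLa RNA as the input of the RNase R step, against the C2C12 label of every library. All libraries were depleted of ribosomal RNA. Whether the paired libraries came from separate cultures is not in the labels, so p-values measure only their spread, which may be technical. The total RNA libraries had 38850 and 35981 back-splice reads, and the RPAD libraries had 150478 and 191246. Of these, 16179, 15392, 55971 and 91868 lay on exonic circles. No transcript of these circles could be matched to a gene symbol (0 of 514 hosts), so the cell label was not checked against marker genes. Intervals below are exact (Clopper-Pearson) 95% intervals and cover counting error only, since PCR copies were not marked.

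Short-flank circles held a substantial share of exonic reads, and the chromosome 2 region supplied the larger part of it in each library. The 665 circles held 23.2% and 24.1% of exonic reads in total RNA libraries 1 and 2, and 18.3% and 15.4% in RPAD libraries 1 and 2. The RPAD values both lay below the total RNA values, with means of 16.8% ± 2.03 and 23.7% ± 0.606 (SD, n = 2 each). The exact permutation test gave p = 0.33, the smallest that 2 against 2 libraries allow. Within these reads the region made up 69.7% and 70.8% for total RNA. For RPAD it made up 73.2% and 52.5%. Without the region the share was 7.03% and 7.04% of exonic reads in total RNA, against 4.90% in RPAD 1 and 7.31% in RPAD 2. Outside the region the RPAD libraries therefore lay on either side of total RNA (exact permutation p = 1).

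**Figure D1:**
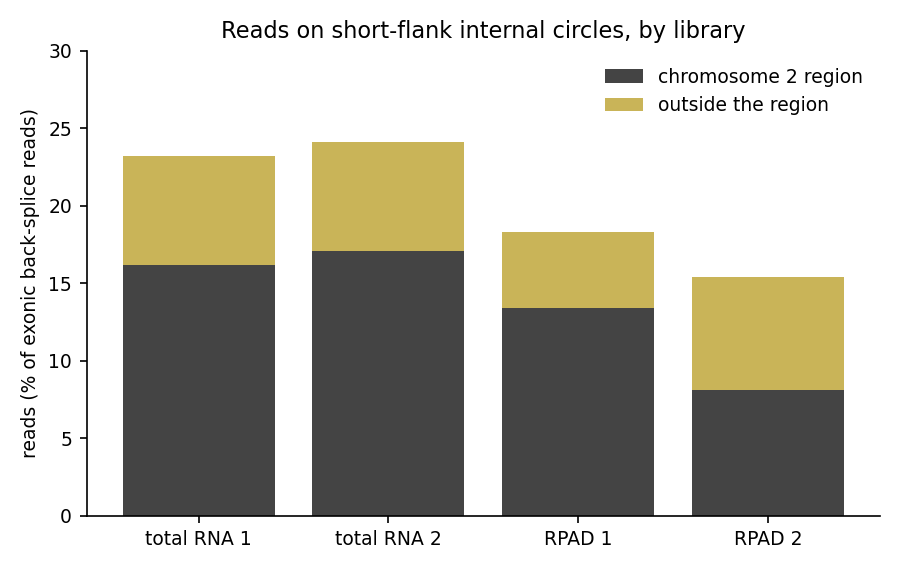
Percent of exonic back-splice reads (vertical axis) on internal multi-exon circles with short flanking introns in each of the 4 libraries (horizontal axis). Dark bars are the chromosome 2 region, from 16.2% and 17.1% in total RNA to 13.4% and 8.09% in RPAD, and light bars are the circles outside it.

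Fewer of these circles were listed after RPAD, with more reads on each, as in the other classes of internal multi-exon circles. Total RNA listed 315 and 306 of the 665, and RPAD listed 64 and 109, with no overlap between groups. Circles with both flanks long went from 499 and 444 to 125 and 188. Those with 1 short and 1 long flank went from 271 and 247 to 67 and 97. The short-flank circles made up 15.2% and 16.8% of listed exonic circles in total RNA, and 12.8% and 14.0% in RPAD. Each listed circle had 11.9 and 12.1 reads on average in total RNA, against 160 and 130 in RPAD. With each library thinned to 15392 exonic reads, total RNA listed 309 and 306 circles, and RPAD listed 57.4 and 80.05 (mean of 20 draws; exact permutation p = 0.33). At that equal depth each listed circle had 11.6 and 12.1 reads against 49.4 and 29.6, so the difference between group means was 27.6 reads in place of 133. Outside the region the total RNA lists held 274 and 265 circles, and the RPAD lists 44 and 90. Reads were also held by few circles there: the leading 4 circles took at least 50% of outside reads in each RPAD library, where 29 and 28 were needed in total RNA. RPAD was applied to RNA and not to cells, so these differences are not read as changes in cells with a circle or in copies per cell.

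Inside the region, 67 circles came from 1 transcript model, and most of their reads fell on a few combinations of splice sites. Exon 124 began 13 circles, exon 119 began 9, exon 131 began 6, and exons 125 and 140 began 5 each. At the other end, 9 circles closed at exon 151, 8 each at exons 141 and 148, 5 at exon 133 and 4 at exon 128. These 5 acceptors and 5 donors could be joined in 22 pairs, and 21 pairs were listed in at least 1 library. They carried 87.0% and 84.7% of the total RNA reads on these 67 circles of the model, and 90.2% and 83.5% of their RPAD reads. Each of the 5 acceptors was joined to at least 3 of the 5 donors.

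Exon 128 was the leading partner of exons 124 and 125, while exons 131 and 140 lie beyond it and cannot be joined to it. From exon 124, the circle to exon 128 (chromosome 2, 76691662 to 76694423, 5 exons, 414 nt) was read 1212, 1093, 3371 and 3383 times, where values here and below run through both total RNA libraries and then both RPAD libraries. The circle to exon 133 (10 exons, 948 nt) had 428, 270, 1244 and 686 reads, and the circle to exon 141 (18 exons, 1878 nt) had 265, 496, 775 and 820. The circle to exon 126, which is not among the 5 donors, had 152, 165, 380 and 750. In each library the exon 128 partner was the highest of these, while the order of the others changed between libraries. From exon 125 the same donor again led in each library, with 75, 139, 835 and 331 reads on exons 125 to 128 (312 nt). From exon 131 the leading partner was exon 141 in total RNA 2 and both RPAD libraries, with 49, 74, 248 and 434 reads on exons 131 to 141 (11 exons, 1296 nt). The pair of exons 131 to 133 had 50, 9, 0 and 174 reads. From exon 140, exon 151 was the highest of these 5 donors in every library where any was read, with 48, 28, 0 and 7 reads (12 exons, 1431 nt). Exon 119 lies before all 5 donors, and none of them led throughout. Its circle to exon 128 had 2, 14, 18 and 1 reads, and its circle to exon 133 had 6, 11, 0 and 0. The circle from exon 119 to exon 141 had 41, 14, 14 and 92 reads, and the circle to exon 151 had 44, 0, 7 and 0.

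**Figure D2:**
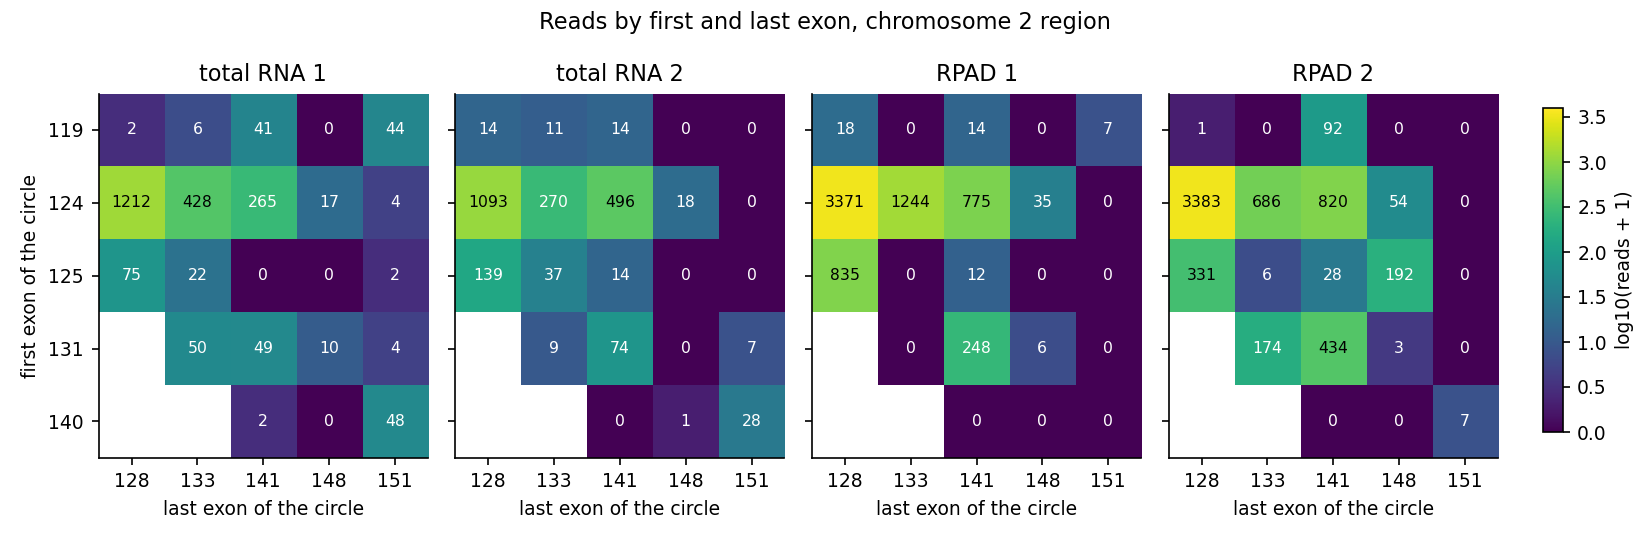
Back-splice reads for each pair of first exon (vertical axis) and last exon (horizontal axis) of the chromosome 2 transcript model, 1 panel per library, with colour on a log10(reads + 1) scale and the count printed in each cell. White cells are pairs that cannot form; the pair of exons 124 and 128 is highest in each panel, and exons 119 and 148 are the pair listed in no library.

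The 5' flanks in the region were the longer side more often. Of 69 circles, 49 had a longer upstream than downstream intron, and the medians were 436 nt and 218 nt. Circles share these introns (the 13 that begin at exon 124 all have the same 436 nt intron upstream), so they are not independent. Outside the region 300 of 596 circles had the longer intron upstream and 294 downstream.

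Some circles of the region spanned very many exons. Exons 66 to 141, the largest at 76 exons and 14073 nt, was read 199 times in RPAD 1 and nowhere else. Exons 66 to 133 (68 exons) had 34 reads in total RNA 2 and 0 elsewhere. Exons 158 to 167 (10 exons, 849 nt) had 173 reads in RPAD 2 only. Each of these rests on 1 library. All spliced lengths assume that every annotated exon between the ends is retained, since the files hold reads of the back-splice junction and not of the circle's interior.

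Circles of the region nearly all had a length divisible by 3, and those elsewhere did not stand out in this. In the region 68 of 69 circles had such a length (98.6%, interval 92.2 to 99.96), and in 61 every single exon was divisible by 3. The exception was exons 141 to 212 (72 exons, 11725 nt), with 3 reads in total RNA 1. Of the 69, 67 came from 1 transcript model and share exons, so they are not independent and the interval is too narrow. In the 61, the exon lengths of the transcript alone set the divisible length. Outside the region 243 of 596 were divisible (40.8%, 36.8 to 44.8), against 233 of 552 (42.2%, 38.1 to 46.5) where 1 flank was short and 1 long, and 389 of 953 (40.8%, 37.7 to 44.0) where both were at least 3000 nt. Over the circles listed in each library, the short-flank class with the region exceeded the long-flank class by 7.76 ± 2.53 percentage points (SD, n = 4 libraries, higher in 4 of 4; exact paired permutation p = 0.13, the smallest possible). Without the region the difference was -4.66 ± 9.08 points (exact permutation p = 0.5), so it rested on the 69 circles of 1 locus. Circles in which every exon was divisible by 3 numbered 66 of 596 outside the region (11.1%, 8.67 to 13.9) and 58 of 953 in the long-flank class (6.09%, 4.65 to 7.80). With 1 short and 1 long flank they numbered 42 of 552 (7.61%, 5.54 to 10.1). A circle of fewer exons meets this more easily, and 34.1% of the 596 had exactly 2 exons, against 15.3% of the long-flank class. The 66 also include all 8 circles of 1 host, ENSMUST00000036934. The part of exon number in these shares was not tested.

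Outside the region, short-flank circles were small. Their median was 3 exons, 403 nt spliced and a genomic span of 3163 nt. The medians were 5 exons, 672 nt and 8614 nt with 1 long flank, and 5 exons, 702 nt and 15075 nt with both long. Circles of exactly 2 exons made up 34.1% of the 596, 17.2% of the class with 1 long flank and 15.3% of the long class. The median of the mean exon length was 119 nt against 136 nt in each of the other classes. The first exon of the circle was number 8 in the median, against 6 and 5.

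The introns that flanked these circles were longer than the introns inside them in fewer than 1 in 2 cases. In 275 of 596 circles (46.1%, 42.1 to 50.2) the mean of the 2 flanking introns exceeded the mean of the inner introns. The share was 83.5% (80.2 to 86.5) with 1 long flank and 93.1% (91.3 to 94.6) with both long. Flank length is set by the rule, so these shares are a description. Inner introns were not restricted by it, and their median of means was 1061 nt, against 2043 nt and 3391 nt. Nevertheless 174 of the 596 circles (29.2%) held at least 1 inner intron of 3000 nt or more. In these the intron spliced out inside the circle was longer than either intron beside it.

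**Figure D3:**
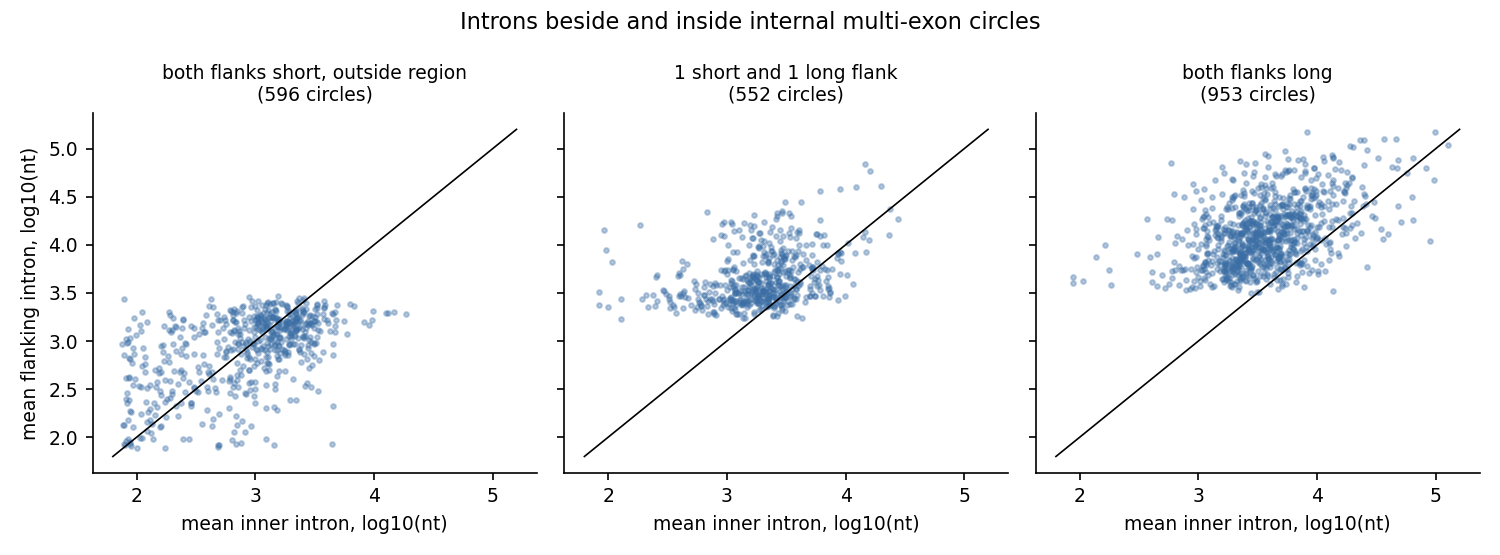
Mean flanking intron (vertical axis, log10 nt) against mean inner intron (horizontal axis, log10 nt) for each internal multi-exon circle, in 3 panels by flanking introns, with the line of equality. Points lie on both sides of the line where both flanks are short (46.1% above it) and mostly above it where both are long (93.1%).

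Up to the limit, circles had higher median exon numbers and lengths where the longer flank was longer. Outside the region, circles whose longer flank was under 500 nt (105 circles) had 2 exons and 249 nt in the median, and 60.0% had exactly 2 exons. With a longer flank of 1000 to 1500 nt (101 circles) the medians were 3 exons and 414 nt. Just inside the limit, at 2500 to 3000 nt (85 circles), they were 4 exons and 594 nt, and just outside it, at 3000 to 3500 nt (81 circles), 5 exons and 640 nt. Beyond that the medians did not rise steadily. Circles at 3500 to 4000 nt (73 circles) had 4 exons and 543 nt, and those at 4000 to 6000 nt (219 circles) had 4 exons and 703 nt. Circles listed in more than 1 library made up 9.41% just inside the limit and 13.6% just outside it. The share was 4.11% at 3500 to 4000 nt and 14.6% at 4000 to 6000 nt.

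A small set of circles had only very short introns around and within them. In 38 circles outside the region both flanks were under 200 nt, and in 21 of these every inner intron was under 200 nt as well. Of the 21, 15 had 2 exons, and 3 were listed in more than 1 library. Together they had 22, 24, 6 and 6 reads. One on chromosome 7, 149762108 to 149762435 (2 exons, 250 nt; introns of 82 nt upstream, 78 nt inside and 88 nt downstream) had 2, 3, 4 and 0 reads. On chromosome 8, 86096131 to 86096354 (2 exons, 147 nt; introns of 93, 77 and 173 nt) had 13, 4, 0 and 0 reads.

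Circles between short introns were more often read once in total RNA. Outside the region 48.2% and 43.8% of listed circles had a single read in total RNA, against 22.6% and 18.9% in the long-flank class. In RPAD the shares were 4.55% and 8.89% against 7.20% and 4.79%. Short-flank circles were thus higher in both total RNA libraries and in RPAD 2, and lower in RPAD 1. The difference over 4 libraries was 13.0 ± 14.4 points (SD; higher in 3 of 4; exact paired permutation p = 0.25, Benjamini-Hochberg adjusted 0.4 over 8 comparisons). Reads per listed circle were 4.15, 4.09, 62.4 and 74.6, against 7.71, 7.96, 103 and 161 in the long-flank class, lower in 4 of 4 libraries (exact paired permutation p = 0.13, the smallest possible; adjusted 0.25). They were also lower in 4 of 4 than with 1 long flank, where they were 6.50, 7.64, 93.9 and 97.2 (adjusted exact p = 0.25).

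The same introns that flank the circles also gave rise to intronic circles, which are thought to derive from intron lariats. Over all libraries, 122 of 596 circles outside the region (20.5%, 17.3 to 23.9) had an intronic circle in at least 1 flanking intron, and 8 had one in both. The share was 100 of 552 (18.1%, 14.99 to 21.6) with 1 long flank and 77 of 953 (8.08%, 6.43 to 10.00) with both long. Within single libraries the shares were 10.9%, 10.2%, 11.4% and 7.78%, against 4.81%, 3.15%, 0.800% and 1.06% in the long-flank class. The difference was 7.61 ± 2.00 points (SD, n = 4 libraries, higher in 4 of 4; exact paired permutation p = 0.13, the smallest possible; adjusted 0.25 over 8 comparisons). Under 500 nt of longer flank the share was 7.62%, against 27.6% at 1500 to 2000 nt and 16.4% at 4000 to 6000 nt. Reads within the introns were not measured otherwise, and the part that expression of the host plays in this was not tested.

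**Figure D4:**
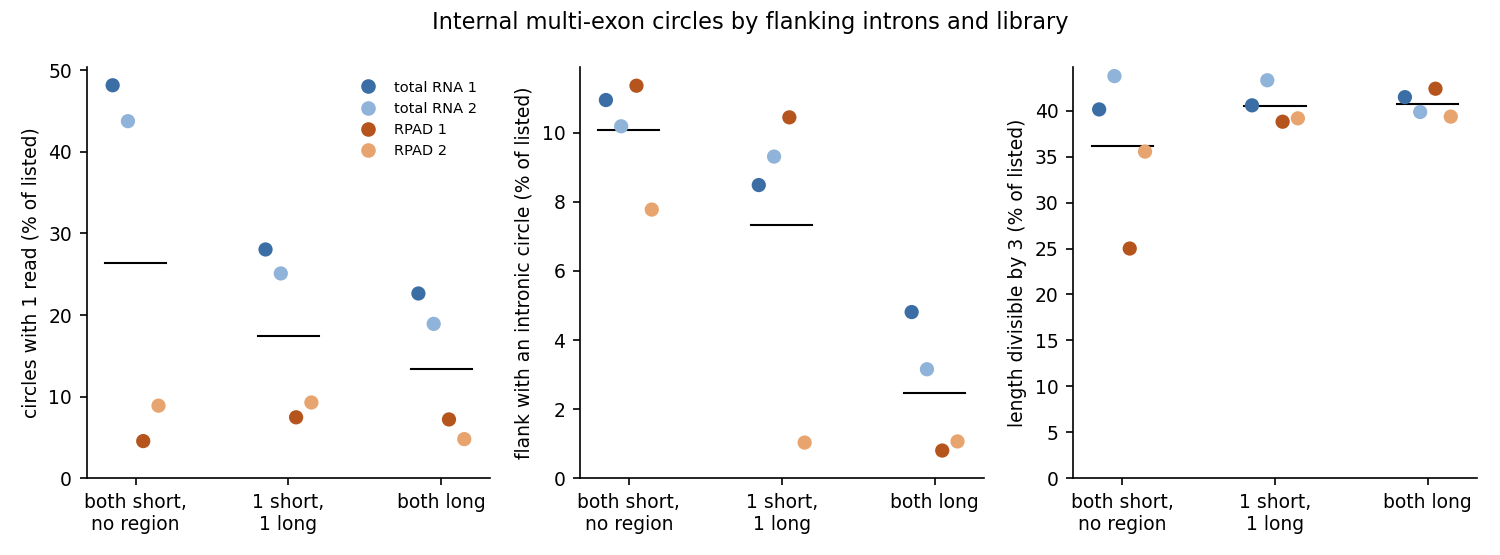
Percent of listed circles (vertical axes) with a single read, with an intronic circle in a flanking intron, and with a length divisible by 3, for 3 classes of internal multi-exon circles (horizontal axes). Each point is 1 library and the line is the mean of 4; in the middle panel the short-flank points (7.78% to 11.4%) all lie above the long-flank points (0.800% to 4.81%).

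Few of these circles recurred. Of 665, 578 were listed in 1 library, 58 in 2, 16 in 3 and 13 in all 4. In the region 10 of 69 were listed in all 4, and outside it 3 of 596. Of circles outside the region listed in either total RNA library, 39 of 500 (7.80%, 5.61 to 10.5) were in both, against 129 of 814 (15.8%, 13.4 to 18.5) in the long-flank class. With at least 2 reads required, an alternative added after seeing the data, the shares were 9.40% and 15.5%. In RPAD 8 of 126 (6.35%, 2.78 to 12.1) were in both libraries, against 30 of 283 (10.6%, 7.27 to 14.8). Each group gives 1 value for a class, so these differences have no test over libraries. With the region included the RPAD share was 13.1% (8.17 to 19.5), above the long-flank value. In the region 23 of 59 circles (39.0%, 26.5 to 52.6) were in both total RNA libraries and 12 of 27 (44.4%, 25.5 to 64.7) in both RPAD libraries.

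Outside the region, 3 circles were read in every library. Chromosome 3 from 90154309 to 90158432 (exons 4 to 7 of its model, 822 nt) had 18, 3, 33 and 801 reads, so a single library holds most of them. Chromosome 5 from 145041689 to 145046464 (exons 4 to 7, 607 nt) had 18, 2, 12 and 70 reads. The chromosome 18 circle from 42480418 to 42485678 (exons 12 to 15, 715 nt) had 6, 4, 4 and 4 reads, the most even of the 3. Each joins 4 exons and has flanks of 479 to 2081 nt. A further 10 circles outside the region were listed in 3 libraries, of which 7 had 0 reads in 1 RPAD library (RPAD 2 for 4, RPAD 1 for 3) and 3 had 0 reads in total RNA 1.

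Of the most abundant circles outside the region, 6 of 12 were read in 1 RPAD library and not in the other. Among the 12 with the highest mean abundance, chromosome 8 from 26848684 to 26860319 (7 exons, 843 nt) was read 1110 times in RPAD 2 and in no other library. Likewise chromosome 1 from 138170327 to 138179458 (6 exons, 2838 nt) had 416 reads and chromosome 19 from 57123952 to 57135872 (4 exons, 403 nt) had 415, both in RPAD 2 alone. Chromosome 11 from 50115260 to 50122431 (5 exons, 721 nt) had 287 reads in RPAD 1 alone, and intronic circles were listed in both of its flanking introns. These 4 were read in 1 library each and did not pass the low-count filter of the test below. Chromosome 3 from 89819052 to 89823263 (6 exons, 778 nt) was read 0, 3, 519 and 0 times, and a 2-exon circle of 1007 nt on chromosome 11 (53213091 to 53216068) had 0, 11, 419 and 0.

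Only 3 of the 12 were read in both RPAD libraries. Chromosome 6 from 119870128 to 119871046 (2 exons, 303 nt; flanks of 1032 and 1443 nt) was read 0, 0, 48 and 1176 times. Exons 29 and 30 of a chromosome 12 model (52860206 to 52862157, 380 nt) had 0, 1, 23 and 329 reads. The third is the chromosome 3 circle with reads in every library. In all 3, RPAD 2 had over 10 times the reads of RPAD 1, whereas its total of back-splice reads was 191246 against 150478.

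The other 3 of the 12 were read in both total RNA libraries and in neither RPAD library. Chromosome 19 from 45012855 to 45022542 (4 exons, 1217 nt) was read 32 and 97 times. Chromosome 2 from 126623203 to 126624970 (3 exons, 433 nt), whose flanks are 78 and 150 nt long, had 17 and 49. Chromosome 5 from 24853179 to 24859226 (5 exons, 638 nt) was read 35 and 31 times. Bounds were set on the scale of all back-splice reads, with a floor of 3 reads over the RPAD pair. They were 196-fold, 100.5-fold and 100.5-fold lower in RPAD. The floor covers counting error alone and not the spread between libraries. Circles well read in either RPAD library were often absent from the other, so the bounds do not limit the change in abundance. These circles could pass the low-count filter only through total RNA, so their direction is a description. With each library left out in turn the bounds ranged from 86.5 to 307, from 44.2 to 155 and from 44.2 to 103, the lowest without RPAD 2 in each case.

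**Figure D5:**
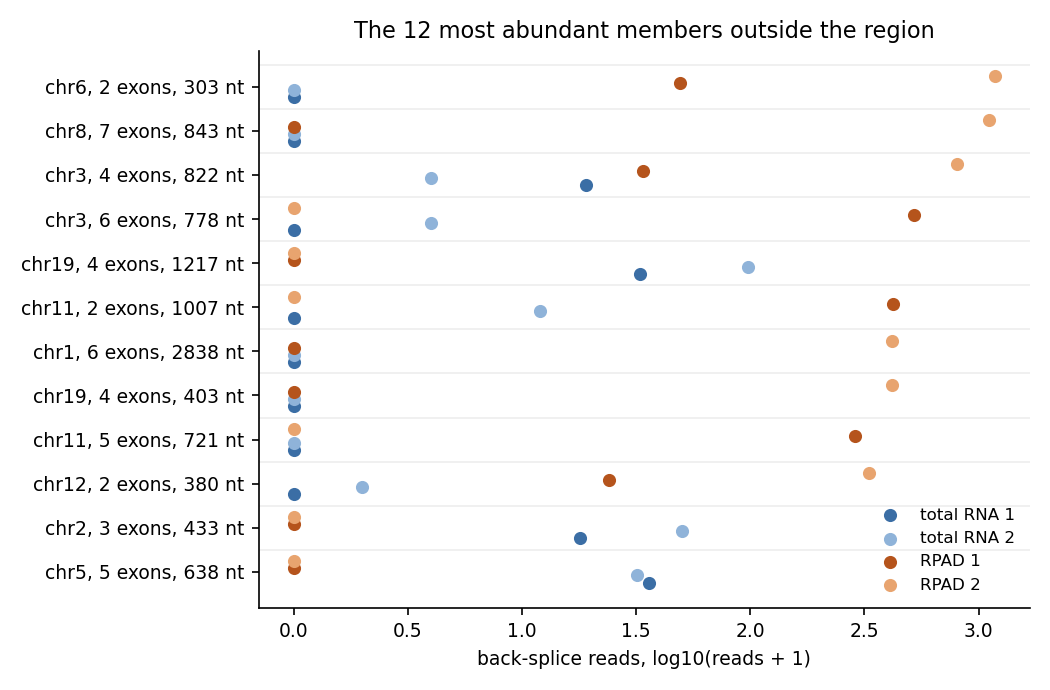
Back-splice reads (horizontal axis, log10 of reads + 1) in the 4 libraries for the 12 most abundant circles outside the chromosome 2 region, labelled by chromosome, exons and spliced length (vertical axis). A point at 0 is a library without reads; 3 circles have reads in both RPAD libraries, and 3 have reads in both total RNA libraries and in neither RPAD library.

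Hosts with several short-flank circles were few. The 596 circles outside the region fell on 512 transcript models, of which 456 gave 1 such circle. A model on chromosome 2 between 52006057 and 52164112 (ENSMUST00000036934) gave 8, which began at exon numbers from 15 to 147. All 8 were read in total RNA only, with 28 and 5 reads in all. Exons 57 to 60 and exons 58 to 61 of it gave overlapping circles of the same length, 729 nt, with 4 and 0 and with 8 and 0 reads in total RNA. Exons 15 to 21 and exons 17 to 23 likewise gave circles of 741 nt each, with 0 and 3 and with 1 and 2 reads.

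A compact model on chromosome 8 (ENSMUST00000019382) gave 7 circles within 86095912 to 86097354, with 13 and 17 reads in total RNA and 0 in RPAD. Their flanks ranged from 76 to 415 nt. On chromosome 19, between 45009423 and 45033570 (PREDICTED.87558.1), 5 circles began at exons 3, 4 or 9. Those beginning at exon 4 closed at exon 7, 8 or 10, with 32 and 97, 0 and 4, and 1 and 5 reads in total RNA. The exon 3 to 7 circle (1951 nt) had 8, 9, 0 and 5 reads and shared the donor of the abundant circle. On chromosome 2, ENSMUST00000028909 gave 4 circles from 144080462 to 144084914, 3 of which closed at exon 8. The 2-exon circle of these, exons 7 and 8 (182 nt), had 2, 6, 0 and 29 reads. A model on chromosome 7 (ENSMUST00000170430) also gave 4.

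Short-flank circles outside the region shared splice sites less often than long-flank ones. A back-splice acceptor or donor was shared with another exonic circle in 154 of 596 (25.8%), against 220 of 552 (39.9%) with 1 long flank and 499 of 953 (52.4%) with both long. Of the 596, 321 were the only exonic circle of their transcript model (53.9%), against 427 of 953 (44.8%). In the region 63 of 69 (91.3%) shared a site. These counts over circles carry no test, and models that overlap were not joined.

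RPAD was compared with total RNA for each circle in an edgeR quasi-likelihood fit over all circles that passed the low-count filter. Of the 665, 56 were tested (37 outside the region), and edgeR called 0 of them at a Benjamini-Hochberg adjusted p under 0.05. Over all 924 circles tested it called 0 as well, which is 0%. The spread between libraries was large (edgeR common dispersion 2.55), so a count of 0 does not show that abundances were alike. At an unadjusted p under 0.05, edgeR gave 2 of the 56 higher in RPAD and 17 lower, where 1.73% of all tested circles were higher and 15.8% lower. Among the 462 exonic circles tested, 2.81% were higher and 27.9% lower, close to the 3.57% and 30.4% of the 56. DESeq2 called 9 of the 56 at its own adjusted p, 1 higher and 8 lower. That is 16.1%, beside 8.44% of all tested circles and 16.5% of exonic circles. It called 0, by an alternative added after seeing the data, when independent filtering was switched off. In edgeR 21 were called without RPAD 1 and 20 without RPAD 2 (19.9% and 23.2% of all tested circles, 37.7% and 43.5% of exonic circles, 37.5% and 35.7% of the 56). The filter is scaled to library size, so it asks for fewer reads in the smaller total RNA libraries. Circles that passed through total RNA had to be high there, and nothing is read from these directions. Scaled reads did not overlap between the groups for 4 of the 56 that were higher in RPAD and 27 that were lower, where 10.7% and 24.9% of all tested circles did so. Of those 924 circles only 462 were exonic, and the share among exonic circles was not counted. Nothing is therefore read from these counts about short-flank circles.

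The smallest p-values belonged to circles absent from a whole group. Such circles could pass the filter only through the group where they were read, so their p-values and directions are a description. Higher in RPAD was the chromosome 6 circle given above, with a bound of 89.3-fold. Chromosome 1 from 158369419 to 158370716 (3 exons, 207 nt), read 0, 0, 56 and 55 times, was also higher, with a bound of 8.10-fold. The latter was even between RPAD libraries. The chromosome 6 bound rests on RPAD 2, since it is 7.96-fold without that library and 153-fold without RPAD 1. Without either total RNA library the bounds are 43.0-fold and 46.4-fold for chromosome 6, and 3.90-fold and 4.21-fold for chromosome 1. Their edgeR Benjamini-Hochberg adjusted p were 0.192 and 0.216. Lower in RPAD outside the region, beside the chromosome 19 circle, were 3 small circles of 2 exons. Chromosome 11 from 66908457 to 66909629 (246 nt) had 9 and 8 reads in total RNA, chromosome 7 from 30977339 to 30977611 (148 nt) had 9 and 9, and the chromosome 8 circle of 147 nt had 13 and 4. All 3 had 0 reads in RPAD and an edgeR Benjamini-Hochberg adjusted p of 0.179. The bounds were 25.9-fold, 27.4-fold and 25.9-fold. Like those above, they cover the counting error of the 0 reads alone. Leaving out 1 RPAD library, which lowers the reads behind the 0, gives 11.4-fold to 15.3-fold for these 3 circles, and without total RNA 1 the chromosome 8 bound is 12.7-fold.

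None of the leading circles of the region passed the threshold. Values here are edgeR log2 fold changes of RPAD against total RNA, relative to all tested circles. Exons 124 to 128 had -0.95 (SE 0.56), exons 124 to 133 had -1.12 (SE 0.95) and exons 124 to 141 had -1.38 (SE 0.94). The edgeR Benjamini-Hochberg adjusted p were 0.692, 0.999 and 0.850. Exons 124 to 126 (3 exons, 252 nt; 152, 165, 380 and 750 reads) had -0.58 (SE 1.23), and exons 125 to 128 had -0.10 (SE 1.31). The median over the 19 tested circles of the region was -1.38, against -1.07 over 462 exonic circles and -0.15 over all 924. Exons 124 to 142 (19 exons, 1962 nt) had 35, 24, 1 and 293 reads, and its value of 0.01 (SE 2.55) became -7.31 without RPAD 2.

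Circles of the region were found again after RPAD more often than those elsewhere. Of circles listed in total RNA, 28.8% (17.8 to 42.1; 59 circles) had a read in RPAD in the region and 6.0% (4.08 to 8.45; 500 circles) outside it. The long-flank class gave 17.7% (15.1 to 20.5; 814 circles). Read depth per circle moved with these shares, as given above, and its part in them was not tested. Among circles of the region with 5 or more reads in each total RNA library, RPAD listed 9 of 16 in both libraries, 4 in 1 and 3 in neither. Outside it 0 of 12 were in both, 3 in 1 and 9 in neither, while in the long-flank class 14 of 56 were in both, 21 in 1 and 21 in neither. A count of 0 in an RPAD library was common even for well-read circles: outside the region 17 of the 23 read 20 or more times in RPAD 1 had 0 in RPAD 2, and 27 of 33 in the other direction. In total RNA the counts were 8 of 13 and 4 of 8.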

How the data were processed

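Each deposited file lists the circles of 1 library, and its values are raw read counts per back-splice junction, per the file headers. The submitters' processing notes name cutadapt, TopHat, Cufflinks 2.2.1 and mm9; the sources used here do not give the junction caller. A circle was chromosome, start, end and strand, a circle absent from a file had 0 reads, and where rows differed the row with most reads gave its structure (7 circles had rows both in this class and in another). Groups came from the sample titles. Tests used edgeR 4.0.16 in R 4.3.3 (quasi-likelihood F test, TMM, filterByExpr with minimum count 5 and total 10, group as the only term, Benjamini-Hochberg over all tested circles), with DESeq2 1.42.0 as an alternative. On simulated counts the fit found most changed circles at a low spread and none at a higher one that was still below the spread of these libraries. Other values came from Python 3.11.15 with scipy 1.17.1, pandas 2.3.3 and numpy 2.4.6, and plots from matplotlib 3.10.9. Named circles are the 12 with highest mean share of library reads outside the region, 8 inside it, the 4 outside with the smallest p in each direction, and the 5 hosts with most circles; others were chosen after their values were seen. Circles and rules were chosen with earlier results of these data known.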

Additional observations from a re-analysis of the deposited data

How the results depend on the processing

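The differences between RPAD and total RNA in listed circles, reads per listed circle and share of exonic reads had the same sign under every alternative run (minimums of 2 and 5 reads, thinning, no chromosome 2 region, limits of 2000 and 5000 nt, and each library left out), but not the same size. Thinning took reads per listed circle from 133 to 27.6, and without the region the share went from -6.83 to -0.929 points (exact permutation p = 1), with the RPAD libraries on either side of total RNA. The excess in lengths divisible by 3 over the long-flank class, 7.76 points, became -4.66 without the region and -6.84 also with at least 2 reads (chosen after seeing the data). The excess in circles found in both RPAD libraries, 2.47 points, became -4.25 and -2.77. In total RNA the difference of -4.76 points was -0.386 with at least 2 reads and -8.05 without the region. Calls among the 56 tested circles were 0 in the edgeR fits with 4 libraries, 9 with DESeq2 (0 without independent filtering, also chosen after seeing the data), and 0 to 21 with 1 library left out, where a single library left in a group takes its spread from the other group. The replicate block gave 0 calls; deviations of same-numbered libraries correlated at 0.0463 over all 924 tested circles and at -0.276 over the 56. The labels do not tie the numbers to a shared culture, so they were not used as pairs.

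Log2 fold changes of 20 named circles kept their sign in all but 23 of 208 refits, and 23 passed the threshold where the edgeR fit did not, 1 of them with its sign turned (exons 124 to 142 without RPAD 2). With each library left out in turn, the values ran from -1.17 to 4.94 for chromosome 3 90154309, -4.62 to 10.34 for chromosome 3 89819052 and -6.45 to 10.03 for chromosome 11 53213091. In the region they ran from -1.52 to 0.22 for exons 124 to 126, -0.39 to 0.25 for 125 to 128, -0.76 to 0.80 for 131 to 141, -7.31 to 1.27 for 124 to 142 and -9.50 to 1.12 for 131 to 133. With no low-count filter exons 124 to 126, 125 to 128 and 131 to 133 were at 0.25, 0.60 and 0.18. Exons 125 to 128 were at 0.24 with DESeq2, 0.19 with library totals alone and 0.34 with at least 10 reads in 2 libraries. Exons 124 to 142 were at -0.23 and -0.20 with the last 2 of these. With the replicate block exons 131 to 141 and 124 to 142 were at -0.055 and -2.96. The cause was not tested.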
